A study of Mus musculus with 2 samples.

Results

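Mitochondrial ribosomal protein genes were followed through a list of E2F1 binding regions from mouse hepatocytes that carried extra E2F1. They were taken from the list by name, as every entry whose gene symbol begins with Mrpl or Mrps and a number. This gave 30 genes, 20 named Mrpl for the large subunit and 10 named Mrps for the small subunit, of 5594 genes in the list. The genes were thus chosen by their name and by the authors' peak call, which rests on the ChIP and input values of each region. The presence and strength of their peaks therefore describe the selection, and neither was tested. The cells were primary cultures of C57Bl6J hepatocytes harvested 36 h after infection with Ad-E2F1, an adenovirus that delivers E2F1. Chromatin pulled down with an anti-E2F1 antibody was sequenced and set against input chromatin, which had no pull-down. The labels give 1 ChIP sample and 1 input sample, both from cells with the virus, and cells without it were not analysed here. The series text speaks of 2 replicates, each made by combining 2 ChIPs, but the list is not divided by replicate. None of the values below therefore has a replicate error.

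Mitochondria carry their own ribosome, which makes the core subunits of the respiratory chain that the mitochondrial genome encodes. Its RNA comes from the mitochondrial genome, while all its proteins are encoded in the nucleus, made in the cytosol and imported. Some have counterparts in bacterial ribosomes, and others are specific to mitochondria. Hepatocytes are rich in mitochondria. E2F1 is a transcription factor known for driving genes of S phase entry. It is known to bind a sequence of the form TTTCCCGC or TTTGGCGC near transcription start sites (TSS).

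Most listed peaks of these genes lay directly at the promoter. Of the 30 genes, 24 had a promoter peak, defined as a summit within 1000 bp of the TSS. Of all 5403 protein-coding genes with a listed peak, 53.0% had one at the promoter, and of all protein-coding genes, listed or not, 13.1%. Since these 30 genes were taken from the list itself, nothing is read from the difference. The strongest stood between Mrps12, which codes for a protein of the decoding centre of the small subunit, and Sars2, which charges mitochondrial serine tRNA. The next were at Mrpl28, Mrpl42 and Mrps17. The promoters of the 4 genes of highest fold are printed here, with that of Mrpl12, which codes for the stalk protein that recruits translation factors and whose promoter holds a short E2F word. The sequences are RefSeq promoters of build GRCm38.p6, from 250 bases before to 30 bases after the annotated start, read 5′ to 3′ along the gene. Capitals mark the E2F words TTTCCCGC or TTTGGCGC and their shorter forms TTCCCGC and TTGGCGC, on either strand.

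Mrps12 promoter, chr7:28741792-28742071, minus strand: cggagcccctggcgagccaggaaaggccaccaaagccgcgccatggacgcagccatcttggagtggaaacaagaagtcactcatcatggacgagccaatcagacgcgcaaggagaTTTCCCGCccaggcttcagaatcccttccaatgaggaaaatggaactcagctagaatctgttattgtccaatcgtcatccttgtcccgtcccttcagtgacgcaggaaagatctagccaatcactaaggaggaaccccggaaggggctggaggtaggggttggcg
Mrpl28 promoter, chr17:26123253-26123532, plus strand: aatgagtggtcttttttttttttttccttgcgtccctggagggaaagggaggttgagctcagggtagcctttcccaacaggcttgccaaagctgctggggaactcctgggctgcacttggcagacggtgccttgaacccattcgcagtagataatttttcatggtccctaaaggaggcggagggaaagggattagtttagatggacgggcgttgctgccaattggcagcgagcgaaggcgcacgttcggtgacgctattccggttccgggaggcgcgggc
Mrpl42 promoter, chr10:95501920-95502199, minus strand: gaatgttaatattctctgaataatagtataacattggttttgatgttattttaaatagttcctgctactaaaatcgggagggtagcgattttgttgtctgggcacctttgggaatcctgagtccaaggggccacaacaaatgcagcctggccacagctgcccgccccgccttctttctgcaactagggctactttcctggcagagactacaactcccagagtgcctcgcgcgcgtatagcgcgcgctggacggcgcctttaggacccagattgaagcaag
Mrps17 promoter, chr5:129715247-129715526, plus strand: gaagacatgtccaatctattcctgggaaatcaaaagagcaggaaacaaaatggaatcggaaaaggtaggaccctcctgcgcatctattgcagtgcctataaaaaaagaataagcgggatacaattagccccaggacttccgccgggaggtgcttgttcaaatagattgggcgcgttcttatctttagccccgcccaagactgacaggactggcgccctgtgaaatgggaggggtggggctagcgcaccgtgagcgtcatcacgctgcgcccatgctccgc
Mrpl12 promoter, chr11:120484387-120484666, plus strand: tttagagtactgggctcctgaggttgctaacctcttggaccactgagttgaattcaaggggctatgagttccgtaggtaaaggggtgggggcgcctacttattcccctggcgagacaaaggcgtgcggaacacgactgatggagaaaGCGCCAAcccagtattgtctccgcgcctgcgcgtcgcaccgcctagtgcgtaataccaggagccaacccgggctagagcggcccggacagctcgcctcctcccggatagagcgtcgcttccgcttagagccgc

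The Mrps12 promoter held TTTCCCGC, starting 135 bases before the annotated start. The starts of Mrps12 and Sars2 lie 147 bp apart on opposite strands, and the word stands between them. The same stretch held 4 copies of CCAAT, the core word of NFY, against 2 in the Mrpl28 stretch, 2 in that of Mrps17, 1 in that of Mrpl42 and 0 in that of Mrpl12. The 2 copies in the Mrpl28 stretch overlap at 1 place, 1 on each strand. None of the stretches of Mrpl28, Mrpl42 and Mrps17 held an E2F word of either length. In Mrpl12 the word GCGCCAA, the reverse complement of TTGGCGC, started 103 bases before the annotated start. A second short word, TTCCCGC, started 38 bases after the annotated start of Mrpl12, beyond the printed stretch. The peaks are on build mm9 and the sequences on GRCm38.p6, so the place of a word within a peak was not read.

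Each listed peak has a fold, a tag count and a false discovery rate, all of them the authors' own values. The fold compares the tags of the ChIP with the local background estimated from the input, and a tag is a sequenced read placed in the called region. Windows given below are 301 bp around the summit on mm9. At the Mrps12 and Sars2 promoter the fold was 29.05 with 367 tags and a false discovery rate of 0%, on chromosome 7 from 29526816 to 29527116. This peak ranked 32 among all 5667 listed peaks. At Mrpl28, the counterpart of a bacterial large subunit protein, the fold was 17.33 and the peak held 137 tags, on chromosome 17 from 26260327 to 26260627. The peak at Mrpl42, a large subunit protein specific to mitochondria, reached a fold of 11.96 and held 476 tags, the highest tag count among these genes. It lay on chromosome 10 from 94964563 to 94964863. Its called region, over which the tags are counted, was also the widest among these genes, at 3918 bp. Mrps17, an RNA-binding protein of the small subunit, followed at 10.0, its 244 tags lying on chromosome 5 from 130221085 to 130221385. False discovery rates were 0.15% at Mrpl28, 0.15% at Mrpl42 and 0.09% at Mrps17. Among the 24 genes these 4 reached a fold of at least 10, or 16.7%, while 22.1% of all 2865 protein-coding genes with a promoter peak did.

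The next 8 promoter genes by fold belonged mostly to the large subunit. Mrpl13, the counterpart of a bacterial large subunit protein, had a fold of 9.66 with 331 tags and a false discovery rate of 0.14%, on chromosome 15 from 55388933 to 55389233. Its window edge lay 70 bp inside the gene, and the same window held the TSS of Mtbp, whose protein takes part in the firing of replication origins. Mrpl12 had a fold of 8.81 with 124 tags and a false discovery rate of 0.09%, on chromosome 11 from 120345747 to 120346047. Windows at Mrpl34 and Mrpl17 lay a short way upstream, at 211 bp and 220 bp, the furthest from the TSS of the 24. Mrpl34 had a fold of 8.46, 163 tags and a false discovery rate of 0.32%, on chromosome 8 from 73988313 to 73988613. Mrpl17, whose bacterial counterpart lies near the exit of the peptide tunnel, had a fold of 7.91, 154 tags and a false discovery rate of 0.2%, on chromosome 7 from 112959834 to 112960134. In the other members of this group the window held the TSS.

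Mrpl40, Mrpl41 and Mrpl43 code for large subunit proteins specific to mitochondria. Mrpl40 had a fold of 7.79 with 260 tags and a false discovery rate of 0.1%, on chromosome 16 from 18876801 to 18877101. Mrpl41 had a fold of 7.43 with 146 tags and a rate of 0.63%, on chromosome 2 from 24830530 to 24830830. Mrpl43 had a fold of 6.81 with 224 tags and a rate of 0.21%, on chromosome 19 from 45080882 to 45081182. All 3 share their peak with a neighbour, described below. Mrps18c, a small subunit protein with a bacterial counterpart, had a fold of 6.71 with 269 tags and a rate of 0.65%, on chromosome 5 from 101227528 to 101227828.

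Below these came promoter peaks of moderate and low fold. Mrps11, of the platform of the small subunit, and Mrpl46 of the large subunit shared a single peak with a fold of 6.15, 158 tags and a false discovery rate of 3.83%. Mrpl4, whose bacterial counterpart lines the peptide tunnel, had a fold of 5.64 with 72 tags, the lowest tag count of the 24. Mrpl21 had a fold of 5.63, and Mrpl27, whose bacterial counterpart reaches towards the site of peptide bond formation, 5.1. Folds under 5 were found at 7 genes. They were 4.89 at Mrpl20 and 4.88 at Mrps16, a gene mutated in human mitochondrial disease. Mrps30, a protein of the large subunit despite its symbol, had 4.58. The fold was 4.23 at Mrpl10, the base of the stalk that carries Mrpl12, and 4.19 at Mrpl47, the counterpart of a bacterial large subunit protein. The Mrpl47 peak held 128 tags at a rate of 6.74%, with its window edge 99 bp inside the gene, on chromosome 3 from 32635670 to 32635970. The weakest promoter peaks belonged to mitochondria-specific proteins of the small subunit. Mrps22, another human disease gene, had a fold of 3.89 with 177 tags and a false discovery rate of 7.49%, with its window edge 50 bp upstream, on chromosome 9 from 98502149 to 98502449. Mrps25 had a fold of 3.68 with 78 tags and a rate of 7.38%, with its window edge 54 bp upstream, on chromosome 6 from 92134082 to 92134382.

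**Figure D1:**
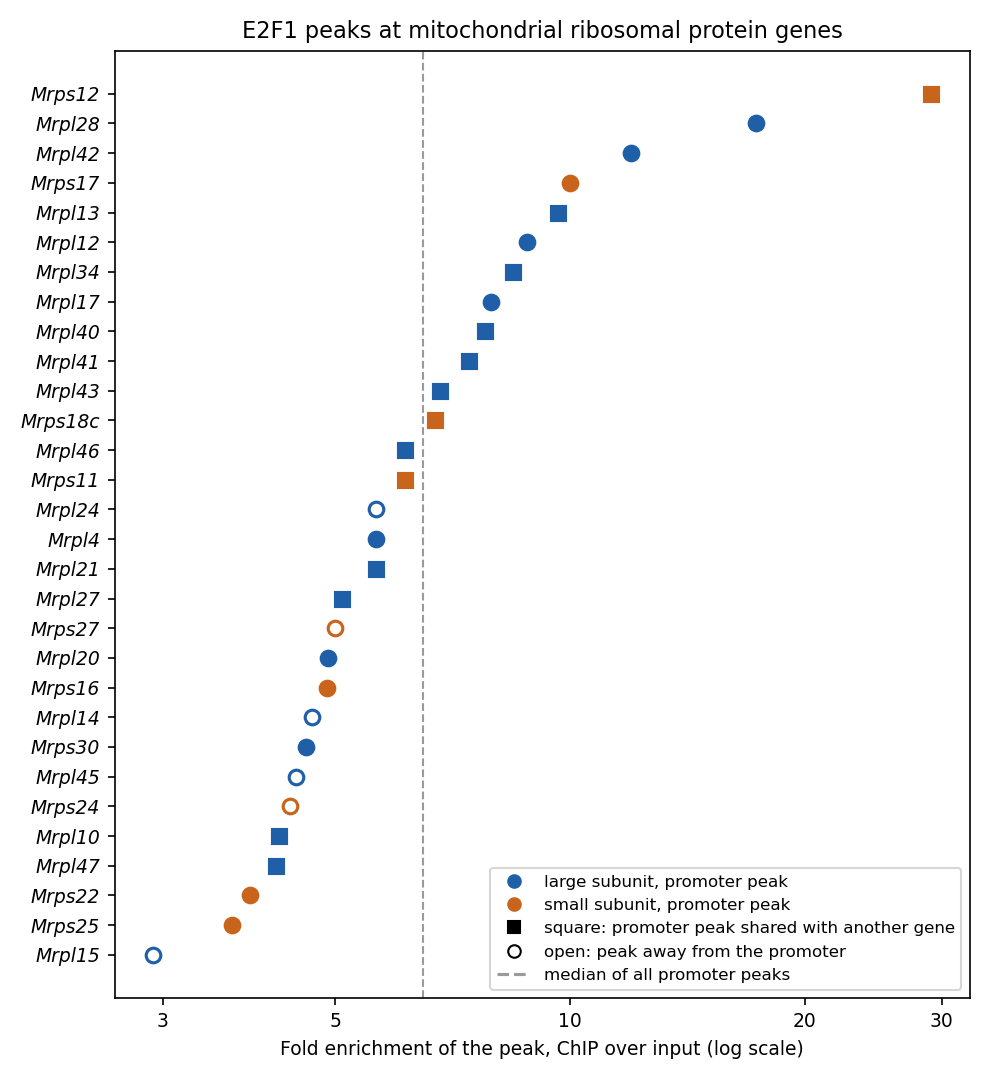
Fold enrichment over input (log axis) of the listed E2F1 peak of each of the 30 mitochondrial ribosomal protein genes, 1 point per gene, coloured by the subunit the protein belongs to. Folds at promoters run from 3.68 at Mrps25 to 29.05 at Mrps12, open symbols mark the 6 peaks away from a promoter (2.92 to 5.64), squares mark promoter peaks shared with another gene, and the dashed line is the median of all promoter peaks, 6.48.

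Across the 24 genes the folds were centred near those of all promoter peaks of the list. Their median was 6.43 (quartiles 4.89 and 8.55), against 6.48 over all 2612 promoter peaks, and 12 of the 24 genes lay above 6.48. Median tags were 158 for the 24 genes and 169 for all promoter peaks. A false discovery rate of at most 1% was found for 13 of the 24 (54.2%), against 60.8% of all promoter peaks, and 4 genes had a rate over 5%. Called regions at these genes spanned 994 to 3918 bp. Fold and tags followed each other loosely over the 23 peaks behind the 24 genes (Spearman's rho 0.49, a description over peaks of the same library), and over all promoter peaks the rho was 0.37.

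**Figure D2:**
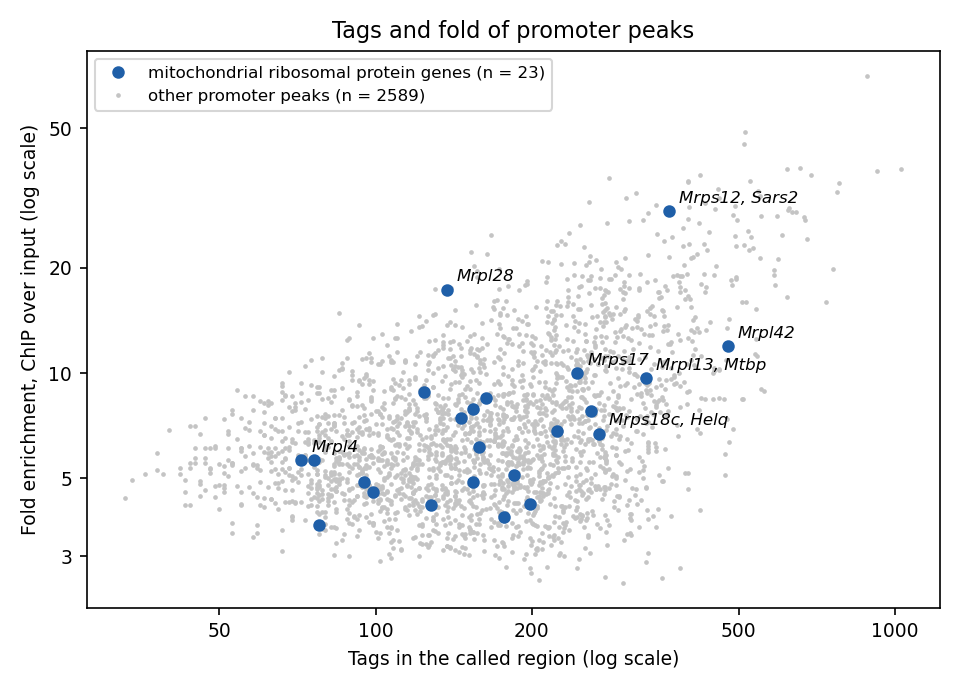
Tags in the called region against fold over input for promoter peaks, both on log axes; blue points are the 23 promoter peaks of mitochondrial ribosomal protein genes and grey points the other promoter peaks. Among the blue points that of Mrps12 and Sars2 has the highest fold (29.05) and that of Mrpl42 the most tags (476), and the blue points lie among the grey ones.

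Peaks sat close to the TSS. The window around the summit held the TSS in 16 of the 24 genes (66.7%), while it did so for 51.3% of all 2865 protein-coding genes with a promoter peak. At 6 further genes the window ended within 100 bp of it, and the remaining 2 were Mrpl34 and Mrpl17. In the families compared below, the window held the TSS in 18 of 22 cytosolic ribosomal protein genes with a promoter peak (81.8%). It did so in 19 of 28 genes of the respiratory chain and ATP synthase (67.9%). These differences were not tested. No member had its window edge between 220 bp and 5138 bp from the TSS, so the count of 24 was the same with promoters of 500 bp and of 5000 bp. The share of all protein-coding genes was 11.4% at 500 bp and 15.3% at 5000 bp.

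The 6 remaining genes were listed for peaks away from their promoter, with folds of 2.92 to 5.64. Mrpl24 was named for a peak 8291 bp upstream that lay inside Hdgf, with a fold of 5.64, 183 tags and a false discovery rate of 0.63%, on chromosome 3 from 87714836 to 87715136. Mrps27, which binds the mitochondrial ribosomal RNA, had a peak inside the gene 25830 bp from the TSS with a fold of 4.99, 45 tags and a rate of 3.94%, on chromosome 13 from 100140571 to 100140871. Mrpl14 had one inside the gene at 7471 bp, with a fold of 4.66, 113 tags and a rate of 3.38%, on chromosome 17 from 45830742 to 45831042. This peak is also listed as upstream of Tmem63b, the gene the authors mark as closer.

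Mrpl45, a protein near the exit of the peptide tunnel, was named for a peak at 5138 bp upstream, where the fold was 4.45, with 287 tags and a false discovery rate of 0.63%, on chromosome 11 from 97171591 to 97171891. For Mrps24, the counterpart of a bacterial protein at the mRNA entry, the peak lay 14899 bp upstream with a fold of 4.37, 89 tags and a rate of 2.82%, on chromosome 11 from 5622590 to 5622890. This peak also lies inside Urgcp. The peak of Mrpl15, 5714 bp upstream, had a fold of 2.92, 165 tags and a rate of 6.88%, on chromosome 1 from 4781535 to 4781835. The median fold of the 6 was 4.56, and that of all 3055 peaks outside promoters was 4.07. No member had more than 1 listed peak.

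Many of these promoters were shared with another gene. Of the 24 genes, 13 had their peak at such a promoter (54.2%), while 21.7% of all protein-coding genes with a promoter peak did, a difference that was not tested. These 13 rest on 12 peaks, because Mrps11 and Mrpl46 share theirs. The partners outside the family were 11 genes. Besides Sars2 these include Peo1, which codes for the helicase of mitochondrial DNA and shares a peak with Mrpl43, and Ndufb5, a subunit of complex I, beside Mrpl47. DNA repair genes were partners as well. Helq, a DNA helicase, shared the peak of Mrps18c, and Eme1, a subunit of a structure-specific nuclease, that of Mrpl27. Hira, a histone chaperone, stood beside Mrpl40, Ighmbp2, a helicase gene, beside Mrpl21, Pnpla7, a lysophospholipase gene, beside Mrpl41, Abhd8 beside Mrpl34 and Lrrc46 beside Mrpl10.

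A peak at such a promoter cannot be given to one gene rather than the other. For Mrps12, Mrpl13, Mrpl46 and Mrpl47 the authors mark the partner as the closer gene. For the other 9 of the 13 it is the member that is marked. The partner lay furthest from the window at Mrpl41 and Mrpl34, where the windows ended 722 bp upstream of Pnpla7 and 756 bp upstream of Abhd8. Folds of the 13 genes at shared promoters had a median of 6.71 and ran from 4.19 to 29.05. The 11 genes with a promoter peak of their own had a median of 5.64 and ran from 3.68 to 17.33, so the 2 sets overlapped over most of their range.

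Not all genes of the family were listed. The RefSeq table of assembly GRCm38.p6 holds 78 protein-coding genes with such symbols, of which 31 had a listed peak anywhere (39.7%), beside 24.7% of all 21896 protein-coding genes. The additional gene is Mrpl58, which the peak list names Ict1 and so was not taken by the rule, with a peak in its 3' untranslated region at a fold of 4.33. A promoter peak was listed for 24 of the 78 (30.8%), beside 13.1% of all protein-coding genes. A promoter peak not shared with another gene was listed for 11 of the 78 (14.1%) and for 10.2% of all protein-coding genes. Genes at shared promoters stayed in these totals. The 78 genes come from the reference by symbol, but the family was taken up because of its listed peaks, so the counts are a description and were not tested.

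Gene arrangement was read from the reference without the peaks. A start is known for 69 of the 78 genes. Of the 22 with both a promoter peak and a known start, 10 (45.5%) had the start of another protein-coding gene on the opposite strand within 1000 bp. The same held for 15 of the 47 without a promoter peak (31.9%). Over all genes with a promoter peak the share was 19.6%, and it was 9.61% for all 17491 protein-coding genes with a known start. Within genes of that arrangement, a promoter peak was listed for 10 of 25 in the family (40.0%) and for 27.5% of all. Where no opposite start was near, the counts were 12 of 44 (27.3%) in the family and 12% over all. Family genes arranged in this way but with no listed promoter peak include Mrpl18 beside Tcp1, Mrpl32 beside Psma2 and Mrpl51 beside Ncapd2, named here after their values were seen. In these pairs the neighbour had no listed promoter peak either. At Mrpl48 the neighbour Rab6a, with its start 36 bp away, did have one, while Mrpl48 had no entry. Peaks were counted only for the genes that the list names. Whether the Rab6a peak covers the Mrpl48 start was not read.

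By the place of the protein in the ribosome, promoter peaks were spread over both subunits. The large subunit had 17 of 51 genes with one (33.3%), with a median fold of 6.81, and the small subunit 7 of 26 (26.9%), with a median of 6.15. Of all protein-coding genes 13.1% had a promoter peak, with a median fold of 6.53. Mrps30 and Mrps18a are counted with the large subunit, and Mrps36, which is now assigned to another mitochondrial complex, with neither. The classes by bacterial counterpart were assigned from general knowledge of ribosomal protein names, and those of Mrpl55 and Mrps28, neither of which had an entry, are uncertain. Proteins with a bacterial counterpart had 16 of 46 (34.8%, median fold 6.43) and mitochondria-specific ones 8 of 31 (25.8%, median fold 6.48). The differences between these classes were not tested, because genes are not replicates. Among the large subunit genes with no entry were Mrpl1, Mrpl2, Mrpl3, Mrpl9, Mrpl11 and Mrpl16, which have bacterial counterparts, and Mrpl37, Mrpl38, Mrpl39 and Mrpl44, which do not. In the small subunit Mrps2, Mrps5, Mrps6, Mrps7, Mrps9 and Mrps10 had none. The list is a selection by the authors, so a gene without an entry was not shown to be unbound.

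Other genes of mitochondrial protein synthesis were counted in the same way, beside the 13.1% of all protein-coding genes. Mitochondrial aminoacyl-tRNA synthetases attach amino acids to tRNAs. Of 20 genes for these synthetases and for the amidotransferase, 11 had a promoter peak (55.0%), with a median fold of 6.39. At Sars2 this is the peak of Mrps12. Pars2, for proline, had a fold of 21.71 with 335 tags, and Mars2, for methionine, 14.6 with 277 tags. In ribosome assembly and modification of rRNA and tRNA, 9 of 26 genes had a promoter peak (34.6%, median fold 5.96). Mto1, a tRNA-modifying enzyme, stood apart with a fold of 18.68 and 271 tags, and the next was 6.51 at Gtpbp10, a GTPase of large subunit assembly.

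Of 15 translation factors 3 had a promoter peak (20%). They were Tsfm, an elongation factor, with a fold of 9.08, 2810006K23Rik with 7.53 and the elongation factor gene Gfm1 with 4.73. In mitochondrial transcription and DNA upkeep the count was 6 of 16 (37.5%, median fold 5.78). Pnpt1, which processes mitochondrial RNA, had a fold of 17.59. Tfam, the packaging protein and transcription factor of mitochondrial DNA, had a promoter peak with a fold of 5.38 and a stronger one of 12.88 inside the gene, and the DNA polymerase gene Polg had 6.17. Of 5 ribosomal proteins with symbols of another kind, Aurkaip1 had a promoter peak, with a fold of 6.9, and Dap3, Ptcd3, Chchd1 and Gadd45gip1 had no entry. These lists were chosen with earlier results of these data known.

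**Figure D3:**
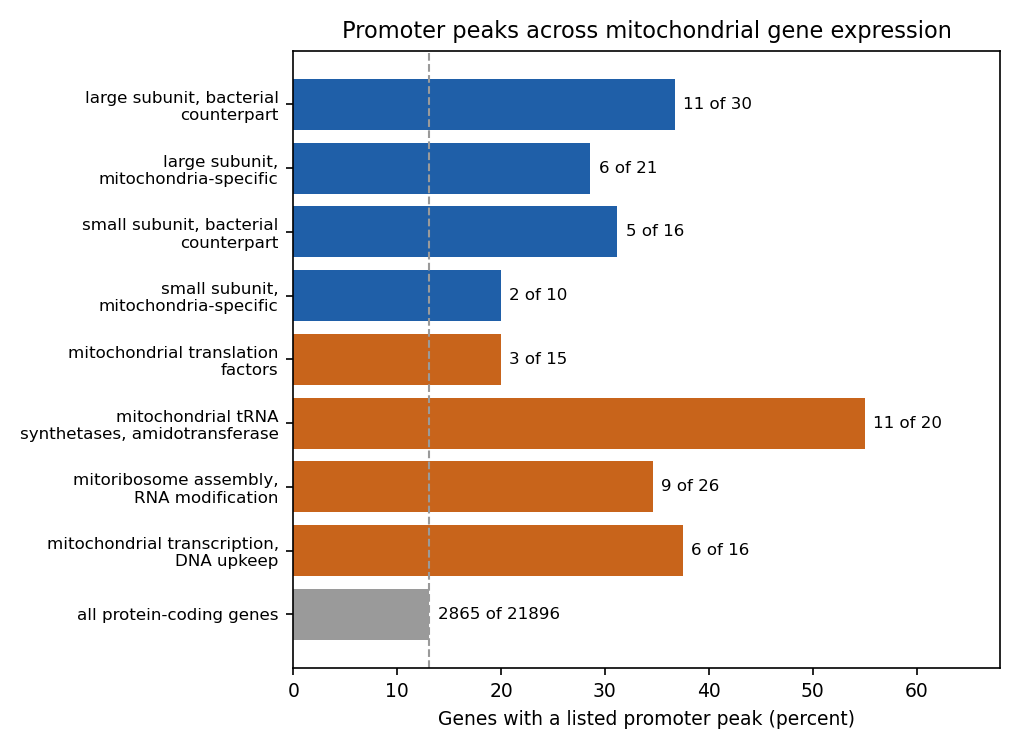
Percent of genes with a listed promoter peak, with counts, for classes of mitochondrial ribosomal proteins (blue), for other genes of mitochondrial gene expression (orange) and for all protein-coding genes (grey; dashed line at 13.1%). The tRNA synthetase list is highest at 55.0%, and the ribosomal classes lie between 20% and 36.7%.

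Cytosolic ribosomal protein genes and genes of the respiratory chain and ATP synthase, both taken by symbol, were set beside the family. The respiratory symbols also take in assembly factors, such as Ndufaf4, Sdhaf3 and Cox10. The cytosolic set took every symbol beginning with Rpl or Rps and a digit, with Rplp0 to Rplp2 and without the Rps6k kinases. It rests on symbols alone and can hold genes that do not code for ribosomal proteins. Promoter peaks were listed for 30.8% of the mitochondrial ribosomal protein genes, for 22 of 90 cytosolic ones (24.4%) and for 28 of 109 respiratory genes (25.7%). The median folds were 6.43, 6.71 and 6.4 in that order. Over all protein-coding genes the share was 13.1%, and the median fold of those with a promoter peak was 6.53. The highest fold of the mitochondrial family, 29.05, was above the 19.02 of the cytosolic family and the 18.42 of the respiratory genes. Shared promoter peaks made up 13 of 24 in the mitochondrial family, 0 of 22 in the cytosolic family and 9 of 28 among the respiratory genes. None of these differences was tested. The peak of Mrpl47 and Ndufb5 counts in both the mitochondrial ribosomal and the respiratory family.

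**Figure D4:**
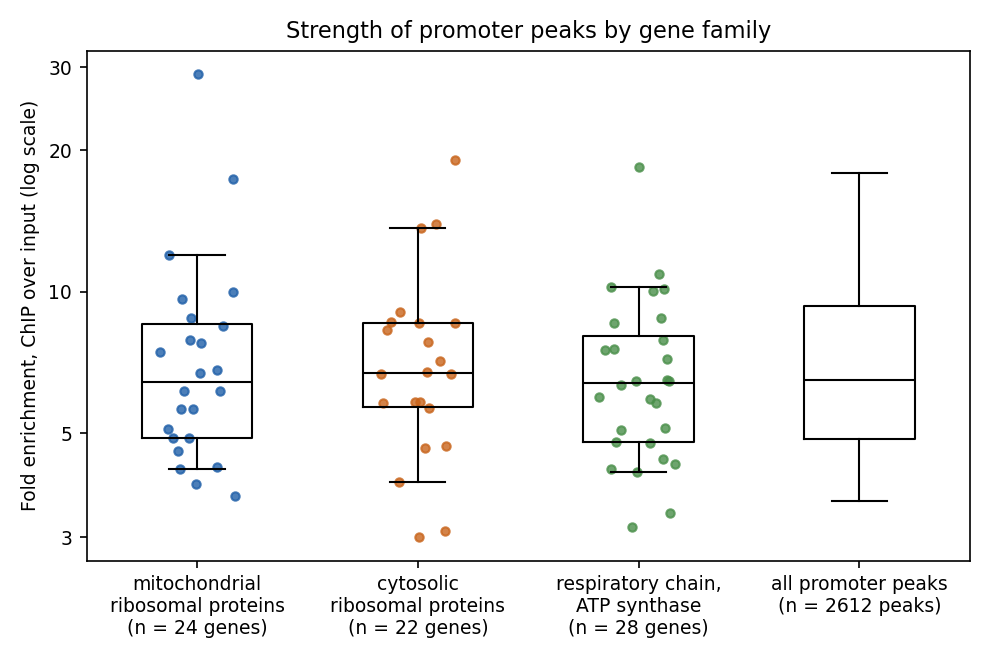
Fold over input (log axis) of promoter peaks in 3 gene families, 1 point per gene at its strongest promoter peak, and in all 2612 promoter peaks; boxes give the median and quartiles and whiskers the 5th to the 95th percentile. The medians lie between 6.4 and 6.71 and the boxes overlap.

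The reference promoters were searched for short words on both strands, over the 250 bases before and 50 after the start. A gene with more than 1 reference promoter counted as holding a word if any of them did. The table held a promoter for 27 of the 30 listed genes, and those of Mrpl4, Mrpl13 and Mrpl15 were not used. A word of 8 bases for E2F, TTTCCCGC or TTTGGCGC, was found at 1 of 22 family genes with a promoter peak (4.55%), Mrps12. It was found at 1 of 47 family genes without one (2.13%), Mrps23, at 7.22% of all 2354 genes with a promoter peak and at 2.31% of all protein-coding genes. The shorter words TTCCCGC and TTGGCGC, which the longer ones contain, were found at 3 of 22 (13.6%), namely Mrps12, Mrpl12 and Mrps18c. They stood at 5 of the 47 without a promoter peak (10.6%), at 23.3% of all genes with a promoter peak and at 9.94% of all protein-coding genes.

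Sites are printed for 2 family genes with a promoter peak and for 2 without one, to show that E2F words of either length occur in both. Mrps12 holds TTTCCCGC and Mrps18c the shorter TTCCCGC, here on the other strand. Mrps23 holds TTTGGCGC and Mrps14 the shorter TTGGCGC, also on the other strand. Each stretch has 30 bases of the RefSeq promoter on GRCm38.p6, with the word in capitals.

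Mrps12 site, chr7:28741938-28741967, minus strand: gcgcaaggagaTTTCCCGCccaggcttcag
Mrps18c site, chr5:100798609-100798638, plus strand: gcccgggaagcGCGGGAAgataaaggtgca
Mrps23 site, chr11:88204175-88204204, plus strand: tcttgcgcagcTTTGGCGCgctcccgctct
Mrps14 site, chr1:160194965-160194994, plus strand: cgggtgGCGCCAAcgcgcagaacacaggcg

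These words start 135, 139, 202 and 244 bases before the annotated start in that order. The folds of the listed peaks were 29.05 at Mrps12 and 6.71 at Mrps18c, while Mrps23 and Mrps14 had no entry.

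Words of other factors were counted in the same way; they differ in length, so their shares are read only against those of other genes. CCGGAAG, a word of ETS factors such as the nuclear respiratory factor GABP, was found at 9 of 22 family genes with a promoter peak (40.9%) and at 17 of 47 without (36.2%). Over all genes with a promoter peak the share was 24.1%, and over all protein-coding genes 12.9%. CCAAT was found at 9 of 22 (40.9%) with a promoter peak, 18 of 47 (38.3%) without, 51.4% of all genes with a promoter peak and 42.3% of all protein-coding genes. GCATGCG, part of the word of the nuclear respiratory factor NRF1, was found at 2 of 22 (9.09%) and 6 of 47 (12.8%) in the family, against 9.43% of all genes with a promoter peak and 4.95% of all protein-coding genes. AAGATGG, a word of YY1, was found at 3 of 22 (13.6%) and 10 of 47 (21.3%) in the family, against 8.71% of all genes with a promoter peak and 7.18% of all protein-coding genes.

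The strongest promoters did not share 1 set of words. Mrps12 held words of E2F, ETS, YY1 and NFY, Mrpl28 and Mrps17 only CCAAT of those searched, and Mrpl42 CCAAT and the YY1 word. Base composition, taken as the highest value over a gene's reference promoters, was alike in both parts of the family. The median was 57.7% G and C with a promoter peak and 58.7% without. The median number of CG pairs, taken in the same way, was 20.5 with a promoter peak and 22 without. Over all genes with a promoter peak these medians were 61.7% and 24, and over all protein-coding genes 57.3% and 15. A word in a promoter is a match of letters and not a measured binding site.

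**Figure D5:**
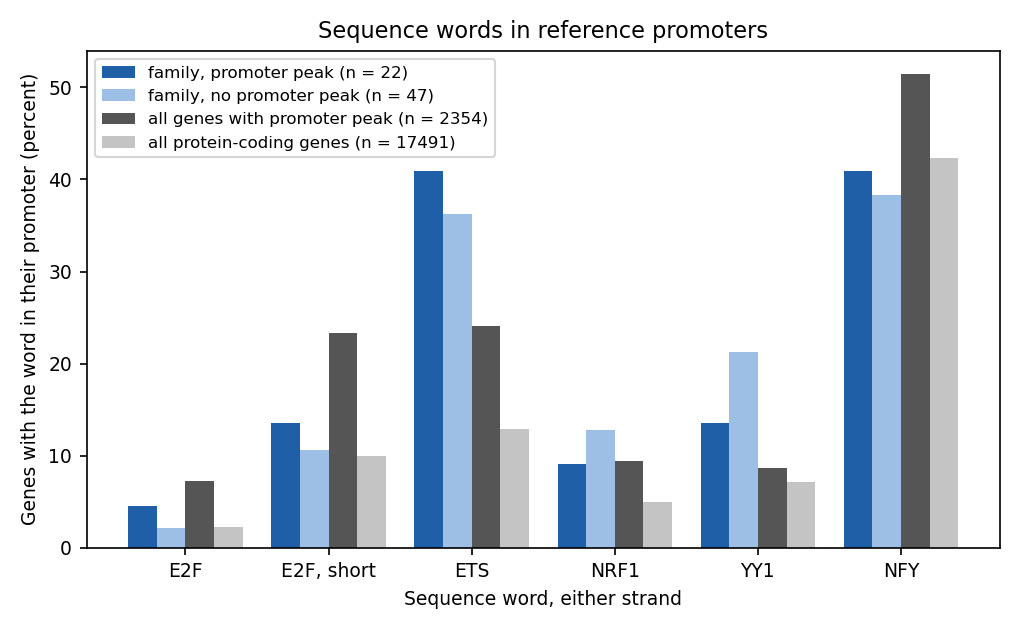
Percent of genes with a reference promoter of 300 bases (any of them, where a gene has several) that holds each sequence word on either strand, for family genes with and without a promoter peak, for all genes with a promoter peak and for all protein-coding genes. The ETS word stands at 40.9% and 36.2% in the family against 12.9% of all protein-coding genes, and the 8-base E2F word at 4.55% and 2.13% against 2.31%.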

How the data were processed

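ChIP-seq of E2F1 and input chromatin gave the single peak list used here. Nuclear extracts of cells fixed in 1% formaldehyde for 10 min were sonicated, per the labels' protocols. The submitters' processing notes name Bowtie2 (2.1.0) and mouse build mm9, also called NCBIM37. The caller was MACS, per the file headers. Its settings, the read totals and any pooling of replicates are not stated in the labels or headers, and the depth is unknown. The deposited values per peak are the count of tags, the pileup signal, the fold (a ratio over input), a score of 10 times the negative log10 of the p-value, and the false discovery rate in percent. A column of unexplained meaning was not used.

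Promoter peaks had a window edge within 850 bp of a TSS. Of 5587 gene symbols, 5492 matched a RefSeq gene of GRCm38.p6 by symbol or by a synonym of 1 gene, used for names, coding status and promoter sequences only. Python (3.11.15) with pandas (2.3.3) made all counts; the promoter call and the word search were checked on simulated data. No test between samples could be run. The members, lists and classes were chosen with earlier results of these data known. All 30 members are named, with full values for the 12 promoter genes of highest fold, the 3 of lowest fold and peaks away from promoters; sequences come from promoters of highest fold. The sequences of Mrpl12, Mrps18c, Mrps23 and Mrps14 were added after their words were seen. Alternatives were other promoter widths, stricter peak thresholds, the closest gene only, a wider family and shorter E2F words.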

Additional observations from a re-analysis of the deposited data

How the results depend on the processing

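Of the 78 family genes, 24 had a promoter peak with promoters of 500, 1000 or 5000 bp and by the authors' own class, 20 when only the closest gene of a peak counted, and 25 of 83 with ribosomal proteins of other names added. The share of all protein-coding genes did move with promoter width, from 11.4% at 500 bp to 13.1% at 1000 bp and 15.3% at 5000 bp. It was 13.2% by the authors' class and 11.7% with the closest gene only. Stricter peaks lowered the count to 13 at a false discovery rate of at most 1%, 14 among the 2833 peaks of best score and 10 among the 1416 of highest fold, while the share of all protein-coding genes became 8.02%, 9.34% and 5.48%. Fewer peaks enter these settings by construction. The median fold of 6.43 became 8.46 at a rate of at most 1% and 8.185 with the peaks of best score, against 8.43 and 7.82 over all promoter peaks under the same settings. Counts by subunit, 17 and 7, were the same at all 3 promoter widths. The E2F word was held by 1 of 22 promoters in full length and by 3 in the shorter form. No paired analysis was possible because the list holds 1 comparison without replicates. Unknown depth limits every absence, and no interval was given.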
